A study of Mus musculus with 6 samples.

Results

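The genes described here build, load and recycle the vesicles that move proteins between the endoplasmic reticulum (ER) and the Golgi. They are 38 of the 54532 genes in the count table, chosen by name: the coats of COPII and COPI vesicles, the small GTPases Sar1 and Arf4, the p24 (Tmed) and lectin cargo receptors, the KDEL receptors, and the SNAREs and tether of the ER-Golgi boundary. Their RNA was measured in XCKO hepatocytes, which were the Xbp1ΔHep cells, and in XCON hepatocytes, which carried the Xbp1FL/FL alleles, with 3 sequencing libraries in each group. All 6 libraries were from primary mouse hepatocytes of C57BL/6 mice aged 32-34 weeks that had received a high-fat diet for 26 weeks, so a low-fat diet was not part of the comparison. The sources used here name neither the driver of the hepatocyte deletion nor the sex of the mice. As a check of the labels, Xbp1 itself had 59.0, 39.3 and 67.4 CPM (counts scaled to a common library total) in XCKO 1, 2 and 3, against 171, 294 and 319 CPM in XCON 1, 2 and 3. Every XCKO library was below every XCON library (log2 fold change −2.24, adjusted p = 0.0084). Reads from any part of the gene that was kept would still count toward it, and the source of the remaining Xbp1 reads was not tested.

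COPII vesicles leave the ER. The GTPase Sar1 is loaded with GTP by Preb (Sec12), inserts into the ER membrane and recruits the Sec23-Sec24 inner coat, in which Sec24 binds cargo, and the Sec13-Sec31 outer coat then forms a cage, with Sec16 marking the exit site. COPI vesicles, formed by Arf GTPases and the coatomer complex, carry escaped ER proteins and cargo receptors back. XBP1, the transcription factor made when IRE1 splices Xbp1 mRNA, is known to raise genes of ER folding and secretion, several COPII genes among them, and the liver uses this route for plasma proteins and for lipoproteins, whose export depends on Sar1b and Surf4.

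The DNA letters that XBP1 is known to bind were read in the promoters first, because they show which of the 38 genes carry them. RefSeq promoters on GRCm38.p6, from 250 bases before to 50 bases after a gene's start, were matched by symbol to 32 of the 38 genes, and none was matched for Arcn1, Kdelr2, Lman1, Tmed2, Tmed7 and Golgb1. For 31 of the 35 promoters of these genes the last 30 bases occurred in a transcript of the gene. A RefSeq start can lie inside the deposited gene. The Sec24a window, at chr11:51756785-51757084 on the minus strand, is such a case, since the deposited gene reaches 51763634. The XBP1 element known as UPRE, searched as TGACGTGG on both strands, was present in 6 of the 32 genes (18.8%): Copb1, Copb2, Kdelr3, Sec23a, Sec24d and Stx5a. Among the 10727 genes tested for expression that had a promoter in the same table the share was 1.03%. One window for each of the 6 genes is shown on the gene's own strand, with the UPRE letters in capitals (CCACGTCA is the same element on the opposite strand).
Copb1, chr7:114254691-114254718, minus strand: ccgcccccttCCACGTCAgccaaggact
Copb2, chr9:98563714-98563741, plus strand: cccggaagttCCACGTCAgtgggttggc
Kdelr3, chr15:79516368-79516395, plus strand: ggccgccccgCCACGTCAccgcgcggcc
Sec23a, chr12:59011994-59012021, minus strand: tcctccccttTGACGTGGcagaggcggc
Sec24d, chr3:123267460-123267487, plus strand: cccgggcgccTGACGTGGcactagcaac
Stx5a, chr19:8741423-8741450, plus strand: ggcgcagcagCCACGTCAccgagttagg
The first base of the element lay at −28, −7, −30, 7, −26 and 10 from the RefSeq start in that order, and Stx5a had another match beginning at base 40. The shorter letters ACGTG, which lie inside the UPRE, were in 22 of the 32 genes (68.8%, against 28.5% of the tested genes), and CCACG, which overlaps the UPRE on its other strand, was in 24 (75.0%, against 50.3%). The ERSE, another ER stress element, was in 0 of the 32 genes and in 0.186% of the tested genes. Both sets of promoters were similar in base composition, with a median GC content of 57.7% in these genes and 60.0% in the tested genes. These shares describe letters in short windows and were not tested.

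None of the 4 genes that passed the expression test below had the UPRE letters in its promoter window. The stretches before the RefSeq start of the 3 that were lower in XCKO are shown for that reason, with the shorter letters named above in capitals on either strand. The Tmed3 stretch ends where the annotated transcript begins. The Sec24b stretch lies inside the deposited gene, which begins on the minus strand at chr3:130061553. It therefore precedes the RefSeq start of Sec24b but not the deposited one. The Sar1b window is not shown because it runs into an exon of its neighbour Sec24a.
Tmed3, chr9:89705069-89705293, minus strand: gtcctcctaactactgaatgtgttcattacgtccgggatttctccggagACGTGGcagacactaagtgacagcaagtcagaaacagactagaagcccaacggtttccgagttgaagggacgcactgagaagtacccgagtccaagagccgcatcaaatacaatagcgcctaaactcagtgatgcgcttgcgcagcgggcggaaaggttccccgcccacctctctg
Sec24b, chr3:130060908-130061157, minus strand: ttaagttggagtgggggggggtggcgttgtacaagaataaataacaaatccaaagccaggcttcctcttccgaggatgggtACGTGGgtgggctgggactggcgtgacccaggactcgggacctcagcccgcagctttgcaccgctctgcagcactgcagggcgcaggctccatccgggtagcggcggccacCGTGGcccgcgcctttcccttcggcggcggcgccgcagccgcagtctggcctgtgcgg
Sec23b, chr2:144555979-144556228, plus strand: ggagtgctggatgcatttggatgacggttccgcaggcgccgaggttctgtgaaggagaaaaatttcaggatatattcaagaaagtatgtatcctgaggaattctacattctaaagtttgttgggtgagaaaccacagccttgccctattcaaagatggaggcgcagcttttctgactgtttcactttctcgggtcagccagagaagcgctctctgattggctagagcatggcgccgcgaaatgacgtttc
Tmed3 and Sec24b each held an overlapping pair of these letters, beginning at −201 and −169 from the RefSeq start, and Sec24b held CCACG once more at −58. The Sec23b stretch held none of them.

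All 38 genes passed the filter on low counts. At a threshold of 0.05 on the adjusted p of edgeR's quasi-likelihood test (Benjamini-Hochberg, 14873 genes), 1 of them rose in XCKO (Sar1b) and 3 fell (Sec23b, Sec24b and Tmed3), while 34 did not pass. Without XCKO 3, 0 were called higher and 1 lower (Tmed3). Over all genes tested 5.21% were called higher and 4.05% lower, and the 1 and 3 calls among 38 genes are near those background shares. Their median log2 fold change (XCKO over XCON) was −0.12, with a range of −1.59 to 1.03, beside −0.05 for all genes tested. Of the 38 genes 26 lay below 0, and of the 14873 genes tested 7963 did. The 3 XCKO libraries lay entirely below the 3 XCON libraries in 14 of the 38 genes and entirely above in 4, where all genes gave 18.1% below and 17.6% above. Scaling libraries by their totals alone moved the median of all genes from −0.05 to −0.31, with 326 genes called higher and 2032 lower in place of 775 and 603; 34 of the 38 genes then lay below 0 and 11 were called lower. Directions below are relative to the TMM scaling of edgeR, and the genes called as lower, as well as Sar1b, kept their direction under both.

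**Figure D1:**
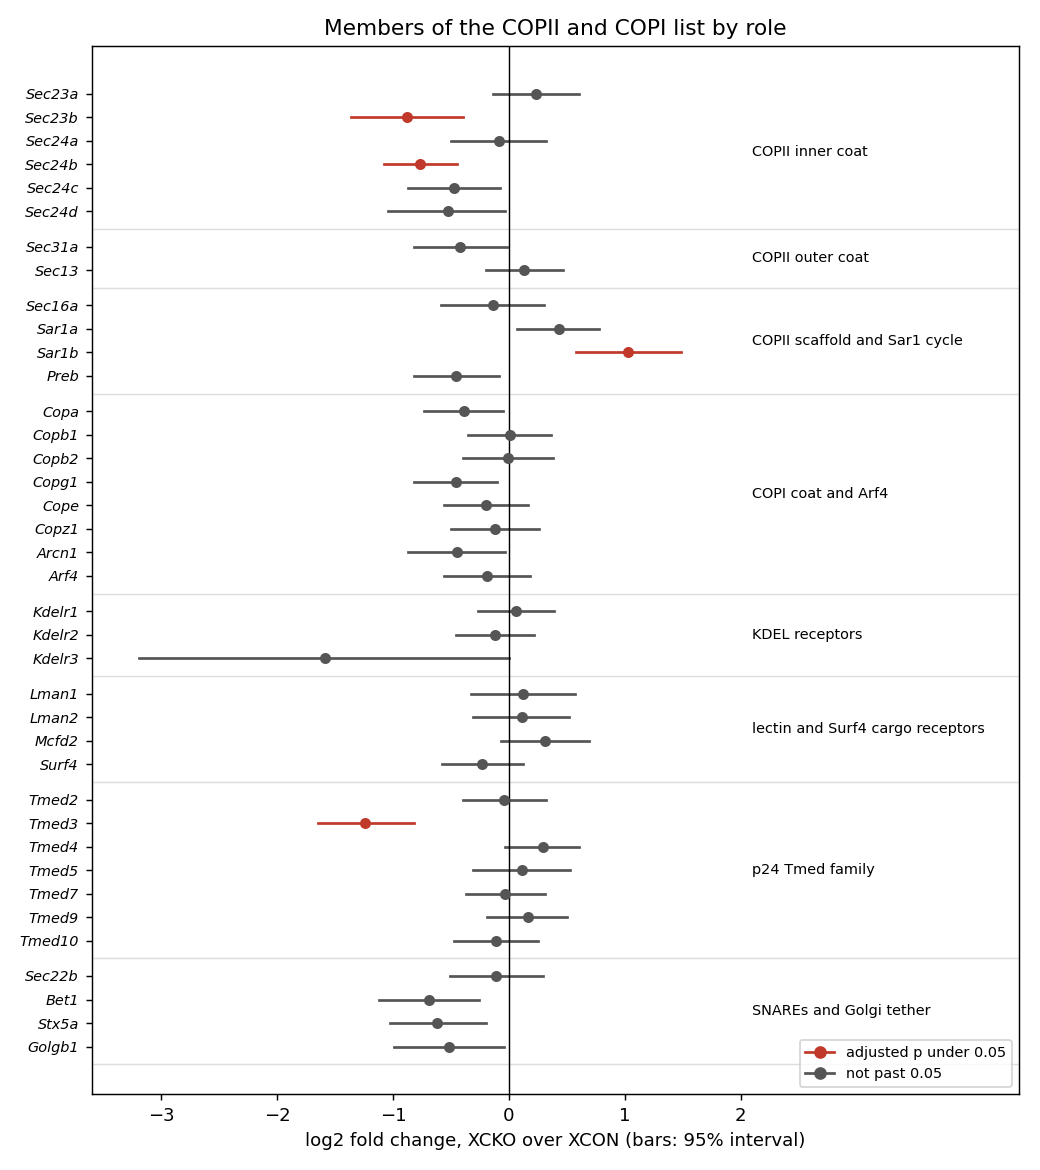
Log2 fold change of XCKO over XCON for each of the 38 genes, grouped by role, with bars for the 95% interval of edgeR's fit over 3 libraries per group. Sar1b lies above 0 and Sec23b, Sec24b and Tmed3 below it past an adjusted p of 0.05 (red); the remaining 34 (grey) did not pass.

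The libraries also differed in total counts, mitochondrial share and cell type marker sums, and whether genotype underlies these differences was not tested. Total counts ran from 26477489 to 27240079 in XCKO and from 23919355 to 26502456 in XCON. Mitochondrial transcripts took 8.99% to 13.1% of the counts in XCKO and 9.3% to 22.8% in XCON, the highest share being that of XCON 1. XCON 1 also stood apart over all genes tested, with a chi-square per degree of freedom between raw counts of 175 to 258 to each other library, against 50.8 to 191 between the others. Without XCON 1, 1 of the 38 genes was called higher and 2 lower. The summed CPM of the 10 hepatocyte markers was 87760 to 117754 in XCKO and 62318 to 84223 in XCON, with 0 of the 10 passing the test. The 12 macrophage markers summed to 444 to 1206 CPM in XCKO and 1287 to 2486 CPM in XCON (2 lower), and the 10 stellate cell markers to 126 to 314 CPM in XCKO and 312 to 666 CPM in XCON (3 lower). Summed CPM was 496 to 1019 in XCKO and 652 to 683 in XCON for 10 endothelial markers, 82.5 to 162 in XCKO and 251 to 583 in XCON for 6 cholangiocyte markers, and 17.0 to 40.6 in XCKO and 35.3 to 118 in XCON for 8 lymphoid and plasma cell markers. For the 4 neutrophil markers it was 2.72 to 62.0 in XCKO and 2.91 to 15.6 in XCON, and for the 4 erythroid markers 14.8 to 825 in XCKO and 9.13 to 18.6 in XCON. No marker in these lists was at 0 in all libraries. In whole preparations of this kind, fewer cells of a type and less RNA per cell cannot be told apart, and the part of other cell types in the values below was not tested. Gene length moved with the fold changes too: the median log2 fold change was 0.21 in the shortest length decile of the tested genes and −0.25 in the longest.

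**Figure D2:**
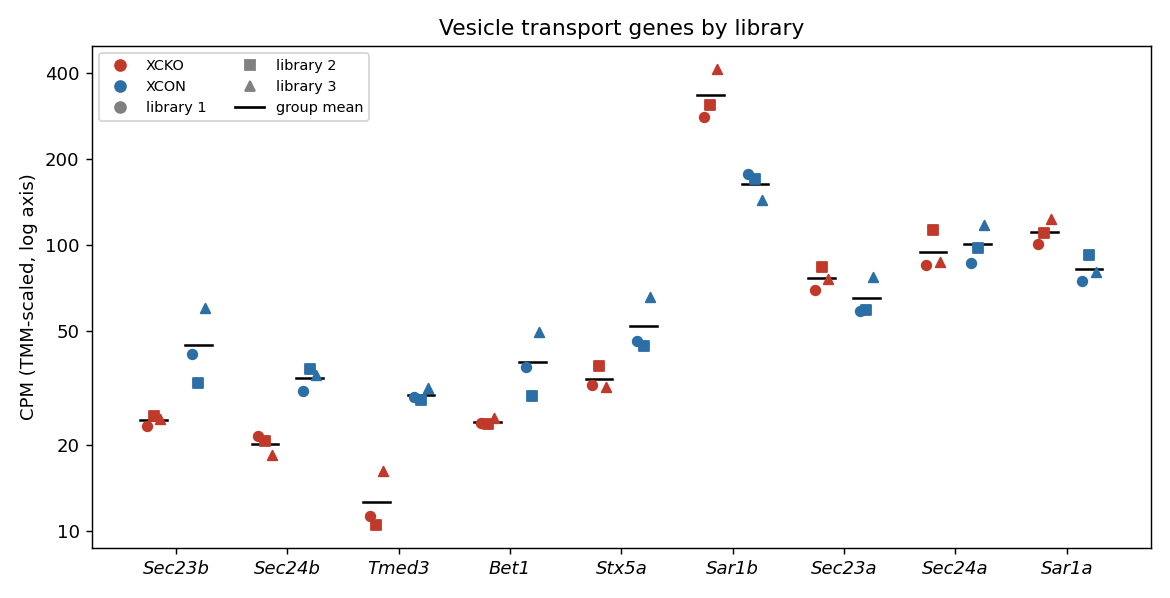
CPM (log axis) of 9 genes in each library, XCKO in red and XCON in blue, with 1 marker shape per library number and a line at the group mean. In Sec23b, Sec24b, Tmed3, Bet1 and Stx5a every XCKO library lies below every XCON library, in Sar1b and Sar1a every one lies above, and in Sec23a and Sec24a the groups overlap.

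The inner coat of COPII held 2 of the 3 falls. Sec23b (ENSMUSG00000027429, chr2:144556229-144590749, plus strand) encodes a Sec23 paralog, the coat subunit that stimulates GTP hydrolysis by Sar1, and in humans its loss causes a congenital anaemia. It had 23.2, 25.2 and 24.7 CPM in XCKO 1, 2 and 3, against 41.7, 32.8 and 60.1 CPM in XCON 1, 2 and 3. The XCKO libraries were close to each other and below all XCON libraries, which spread widely with XCON 3 on top. Sec23b averaged 24.3 ± 1.0 CPM in XCKO and 44.9 ± 14 CPM in XCON (SD, n = 3 each), a log2 fold change of −0.88 ± 0.21 (SE; edgeR adjusted p = 0.038). The call passed in only 1 of the 6 fits that left out a library (adjusted p = 0.0321 without XCON 2); without XCKO 1, 2 or 3 it was 0.0926, 0.0833 or 0.111, and without XCON 1 or 3 it was 0.0795 or 0.0766. It was also lost with a correction for gene length, where the log2 fold change was −0.77 (adjusted p = 0.0687), and on log2 FPKM with a pseudocount of 1 (−0.67, adjusted p = 0.0682) or 0.1 (−0.79, adjusted p = 0.0674).

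Sec23a, the other paralog, did not pass. Its values of 69.5, 84.0 and 76.3 CPM in XCKO overlapped the 58.8, 59.3 and 77.6 CPM in XCON, and its log2 fold change was 0.23 (95% interval −0.14 to 0.60, adjusted p = 0.38). Levels of the pair were set side by side per length, in the authors' FPKM (values divided by gene length and library size). Sec23b made up 20.4%, 18.7% and 19.9% of the summed Sec23 FPKM in XCKO 1, 2 and 3, against 35.3%, 29.8% and 37.3% in XCON 1, 2 and 3. The sum itself was 19.7 ± 1.5 FPKM in XCKO and 20.1 ± 4.7 FPKM in XCON (SD, n = 3 each), a difference smaller than the spread between libraries. The log2 ratio of Sec23b to Sec23a counts within a library, which no scaling can change, was −1.58, −1.74 and −1.63 in XCKO and −0.49, −0.86 and −0.37 in XCON. The difference of −1.07 ± 0.15 (SE) gave a two-sided exact permutation p of 0.1, the smallest that 3 libraries against 3 allow, and 0.167 after adjustment over 5 paralog pairs.

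Sec24b (ENSMUSG00000001052, chr3:129982759-130061553, minus strand) is 1 of 4 Sec24 cargo adaptors and is known in mice for the export of the planar polarity protein Vangl2. It had 21.5, 20.6 and 18.5 CPM in XCKO 1, 2 and 3, against 30.9, 37.0 and 35.1 CPM in XCON 1, 2 and 3. Both groups were tight and did not overlap. Sec24b averaged 20.2 ± 1.5 CPM in XCKO and 34.4 ± 3.1 CPM in XCON (SD, n = 3 each), a log2 fold change of −0.77 ± 0.14 (SE; edgeR adjusted p = 0.017). The call was lost without XCKO 3 (adjusted p = 0.062). Sec24a, which overlaps Sec24b in the cargo it binds, had 84.9, 113 and 87.0 CPM in XCKO and 86.9, 97.5 and 118 CPM in XCON. Those groups overlapped, and the log2 fold change was −0.09 (95% interval −0.50 to 0.32).

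The other pair of Sec24 adaptors lay lower in every XCKO library without passing. Sec24c had 60.8, 83.1 and 70.9 CPM in XCKO and 85.3, 101 and 112 CPM in XCON, a log2 fold change of −0.47 with an adjusted p of 0.11. Sec24d, which has the UPRE shown above, had 63.0, 59.9 and 57.5 CPM in XCKO and 71.5, 68.4 and 121 CPM in XCON, a log2 fold change of −0.53 with an adjusted p of 0.15. XCON 3 stood far above the other XCON libraries for Sec24d. Summed over the 4 adaptors, Sec24 reached 33.0 ± 2.5 FPKM in XCKO and 43.6 ± 8.7 FPKM in XCON (SD, n = 3 each). Within that sum, Sec24a took 26.7 ± 1.8% in XCKO and 21.2 ± 0.58% in XCON, and Sec24b took 10.2 ± 1.1% in XCKO and 13.0 ± 1.9% in XCON. The log2 ratio of Sec24a to Sec24b was 1.98, 2.44 and 2.23 in XCKO and 1.49, 1.39 and 1.74 in XCON, a difference of 0.68 ± 0.17 (SE) with an exact permutation p of 0.1 (adjusted 0.167). For Sec24d over Sec24c the ratio was 0.05, −0.47 and −0.30 in XCKO and −0.25, −0.56 and 0.12 in XCON, a difference of −0.01 ± 0.25 (SE) with overlapping groups and an exact permutation p of 1.0.

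**Figure D3:**
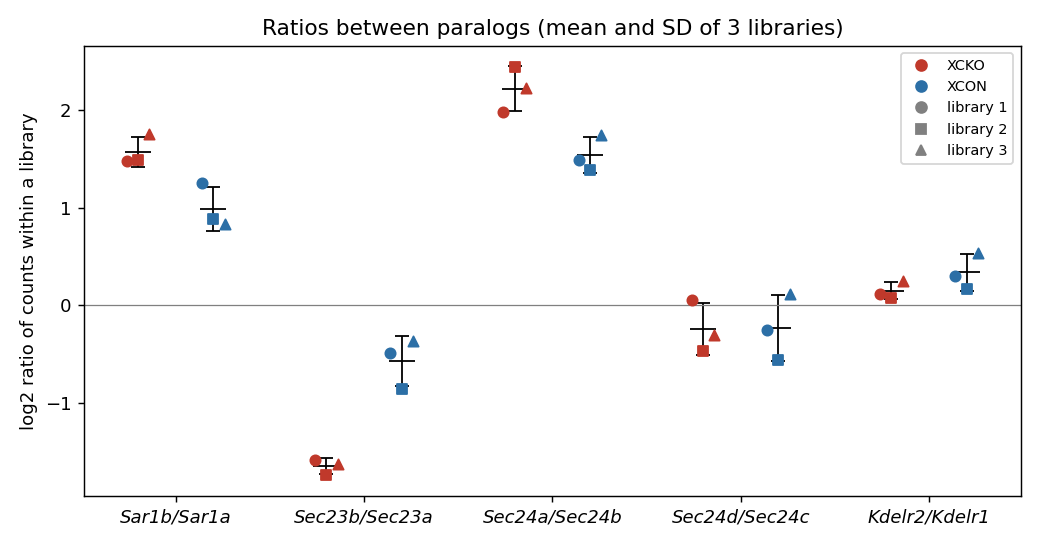
Log2 ratio of the counts of 2 paralogs within each library for 5 pairs, XCKO (red) left of XCON (blue), with the mean and SD of 3 libraries. The groups do not overlap for Sar1b over Sar1a, Sec23b over Sec23a and Sec24a over Sec24b, and they overlap for Sec24d over Sec24c and Kdelr2 over Kdelr1.

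Neither outer coat gene passed. Sec31a, the longer cage subunit, averaged 103 ± 12 CPM in XCKO and 137 ± 22 CPM in XCON, with groups that did not overlap and a log2 fold change of −0.42 (adjusted p = 0.15). Its partner Sec13, which also serves in the nuclear pore, averaged 38.6 ± 5.1 CPM in XCKO and 35.2 ± 2.6 CPM in XCON, a log2 fold change of 0.13 (95% interval −0.20 to 0.47). Sec16a, the exit site scaffold, had a log2 fold change of −0.14 with overlapping groups. Preb, the exchange factor that loads Sar1, had 54.8, 67.5 and 57.2 CPM in XCKO and 79.5, 72.7 and 94.0 CPM in XCON, a log2 fold change of −0.46 with an adjusted p of 0.10.

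Sar1b was the gene that rose. It encodes the Sar1 paralog whose loss in humans causes chylomicron retention disease (ENSMUSG00000020386, chr11:51763687-51791925, plus strand). Its values were 281, 308 and 414 CPM in XCKO 1, 2 and 3, against 178, 170 and 144 CPM in XCON 1, 2 and 3. Every XCKO library lay above every XCON library, with XCKO 3 the highest. Sar1b averaged 334 ± 70 CPM in XCKO and 164 ± 18 CPM in XCON (SD, n = 3 each), a log2 fold change of 1.03 ± 0.20 (SE; edgeR adjusted p = 0.021). The call was lost without XCKO 3 (0.0609), XCON 2 (0.0507) or XCON 3 (0.0624), while the log2 fold change stayed between 0.86 and 1.15. At 1255 bases Sar1b falls in the shortest length decile, whose median log2 fold change was 0.21, and with the length correction its own was 0.79 (adjusted p = 0.0322). It was also the highest of the 38 genes per length, with a mean of 197 FPKM over the 6 libraries.

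Sar1a, the paralog, had 101, 110 and 123 CPM in XCKO and 74.8, 92.2 and 80.8 CPM in XCON, with groups apart and a log2 fold change of 0.43 (95% interval 0.07 to 0.78, adjusted p = 0.11). Together both Sar1 genes reached 296 ± 64 FPKM in XCKO and 149 ± 12 FPKM in XCON, of which Sar1b made up 89.8 ± 0.95% in XCKO and 85.5 ± 1.9% in XCON (SD, n = 3 each). The log2 ratio of Sar1b to Sar1a was 1.48, 1.49 and 1.75 in XCKO and 1.25, 0.88 and 0.83 in XCON, a difference of 0.58 ± 0.16 (SE) with an exact permutation p of 0.1 (adjusted 0.167). Sar1b and Sec24a are head-to-head neighbours, 52 bases apart in the deposited annotation, and of this pair Sar1b rose while Sec24a, at −0.09, did not pass.

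None of the 7 coatomer subunits passed, nor did Arf4, a GTPase of the Golgi and ER-Golgi boundary. Copa, Copg1 and Arcn1 (the alpha, gamma and delta subunits) were lower in every XCKO library. Copa averaged 176 ± 6.4 CPM in XCKO and 230 ± 14 CPM in XCON, a log2 fold change of −0.39 with an adjusted p of 0.13. Copg1 averaged 58.6 ± 1.0 CPM in XCKO and 80.6 ± 14 CPM in XCON (−0.46, adjusted p = 0.096). Arcn1 averaged 102 ± 3.7 CPM in XCKO and 140 ± 32 CPM in XCON (−0.45, adjusted p = 0.15). These are long genes, in the longest length decile, whose median log2 fold change was −0.25. Copb1 and Copb2, both with the UPRE, had log2 fold changes of 0.01 (95% interval −0.35 to 0.36) and −0.01 (−0.40 to 0.38), and Cope, Copz1 and Arf4 had −0.20, −0.12 and −0.19. Coatomer summed to 98.9 ± 6.9 FPKM in XCKO and 110 ± 15 FPKM in XCON (SD, n = 3 each). The reads of Copa could include some of Ncstn and those of Arf4 some of Pde12, which share exon bases on the opposite strand, since no source used here says whether strand entered the counting.

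KDEL receptors return escaped ER chaperones, and the groups overlapped for the 2 abundant ones. Kdelr1 averaged 91.8 ± 5.3 CPM in XCKO and 88.1 ± 7.6 CPM in XCON, a log2 fold change of 0.06 (95% interval −0.27 to 0.39). Kdelr2 averaged 102 ± 11 CPM in XCKO and 111 ± 4.8 CPM in XCON, a log2 fold change of −0.12 (−0.46 to 0.22). The log2 ratio of Kdelr2 to Kdelr1 was 0.12, 0.08 and 0.25 in XCKO and 0.30, 0.17 and 0.54 in XCON, a difference of −0.18 ± 0.12 (SE) with an exact permutation p of 0.2 (adjusted 0.25). Kdelr3, the third receptor, was near the limit of detection, with 8, 1 and 7 reads in XCKO and 20, 24 and 11 reads in XCON. Its log2 fold change was −1.59 ± 0.71 (SE, adjusted p = 0.17), and since its exons share 4 bases with Ddx17, an abundant gene on the opposite strand, these few reads are uncertain. Summed over the 3 receptors, the level was 105 ± 10 FPKM in XCKO and 105 ± 1.1 FPKM in XCON.

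Cargo receptors of the lectin type did not pass. Lman1 (ERGIC-53) and Mcfd2, which together carry coagulation factors V and VIII, had log2 fold changes of 0.12 (95% interval −0.33 to 0.57) and 0.31 (−0.07 to 0.69). Mcfd2 had 249, 276 and 308 CPM in XCKO and 212, 248 and 211 CPM in XCON, so that all XCKO libraries lay above all XCON libraries. Lman2 (VIP36) had a log2 fold change of 0.11 with overlapping groups. Surf4, a receptor for lipoproteins, had 248, 271 and 263 CPM in XCKO and 284, 315 and 318 CPM in XCON, a log2 fold change of −0.23 with an adjusted p of 0.36. It shares exon bases with Surf2 on the opposite strand.

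Among the p24 proteins, small membrane proteins that cycle with COPII and COPI vesicles and bind cargo in complexes, only Tmed3 of the 7 passed. Tmed3 (ENSMUSG00000032353, chr9:89699206-89705068, minus strand) had 11.3, 10.5 and 16.2 CPM in XCKO 1, 2 and 3, against 29.3, 28.7 and 31.6 CPM in XCON 1, 2 and 3. The XCON libraries were nearly level, and the highest XCKO library, XCKO 3, was far below them. Tmed3 averaged 12.7 ± 3.1 CPM in XCKO and 29.9 ± 1.5 CPM in XCON (SD, n = 3 each), a log2 fold change of −1.24 ± 0.18 (SE; edgeR adjusted p = 0.011). It passed in all 6 fits that left out a library (adjusted p from 0.0165 to 0.044) and under all 17 alternatives tried. Of the summed p24 FPKM, Tmed3 made up 2.37%, 2.29% and 3.27% in XCKO and 6.40%, 5.66% and 6.93% in XCON, while the sum was 168 ± 9.6 FPKM in XCKO and 162 ± 7.6 FPKM in XCON.

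The remaining 6 p24 genes had log2 fold changes between −0.11 and 0.29. Tmed4, a member of the alpha subfamily, averaged 91.2 ± 4.2 CPM in XCKO and 74.8 ± 4.6 CPM in XCON, with groups apart and an adjusted p of 0.20. Tmed2 and Tmed10, the beta and delta members, had −0.04 and −0.11, Tmed9 had 0.16, and Tmed5 and Tmed7, which with Tmed3 belong to the gamma subfamily, had 0.11 (95% interval −0.31 to 0.53) and −0.03 (−0.37 to 0.31). Tmed5 (18135 reads over the 6 libraries) shares exon bases with Mtf2 (1240 reads) on the opposite strand. Tmed7 (20605 reads) does so with Ticam2 (163 reads) on its own strand. Outside this family, Sec24c (13555 reads) shares some with 6230400D17Rik (128 reads) on the opposite strand, and Golgb1 (15699 reads) with AC154232.2 (451 reads) on its own. These counts are uncertain to a degree that was not tested.

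None of the 4 SNARE and tether genes passed, though Bet1 and Stx5a missed the threshold narrowly. Bet1, a SNARE of ER-Golgi vesicles, had 23.9, 23.6 and 24.9 CPM in XCKO and 37.5, 29.6 and 49.7 CPM in XCON, a log2 fold change of −0.69 ± 0.19 (SE; adjusted p = 0.054). Stx5a, the syntaxin that Bet1 pairs with, had 32.4, 37.7 and 31.8 CPM in XCKO and 46.3, 44.2 and 65.7 CPM in XCON, a log2 fold change of −0.62 ± 0.18 (SE; adjusted p = 0.064). Both had groups apart and their highest value in XCON 3. Without that library their log2 fold changes were −0.47 and −0.41 (edgeR adjusted p = 0.123 and 0.149). Over the 6 fits that left out a library, Bet1 passed in 1 (adjusted p up to 0.131) and Stx5a in 0 (up to 0.176). Bet1 had an adjusted p of 0.038 in the authors' deposited table, which called Sar1b higher and Sec23b, Sec24b, Tmed3 and Bet1 lower. Sec22b, another SNARE of this complex, had −0.11 with overlapping groups, and Golgb1 (giantin), a Golgi tether, averaged 81.2 ± 20 CPM in XCKO and 116 ± 16 CPM in XCON, a log2 fold change of −0.52 with an adjusted p of 0.14.

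**Figure D4:**
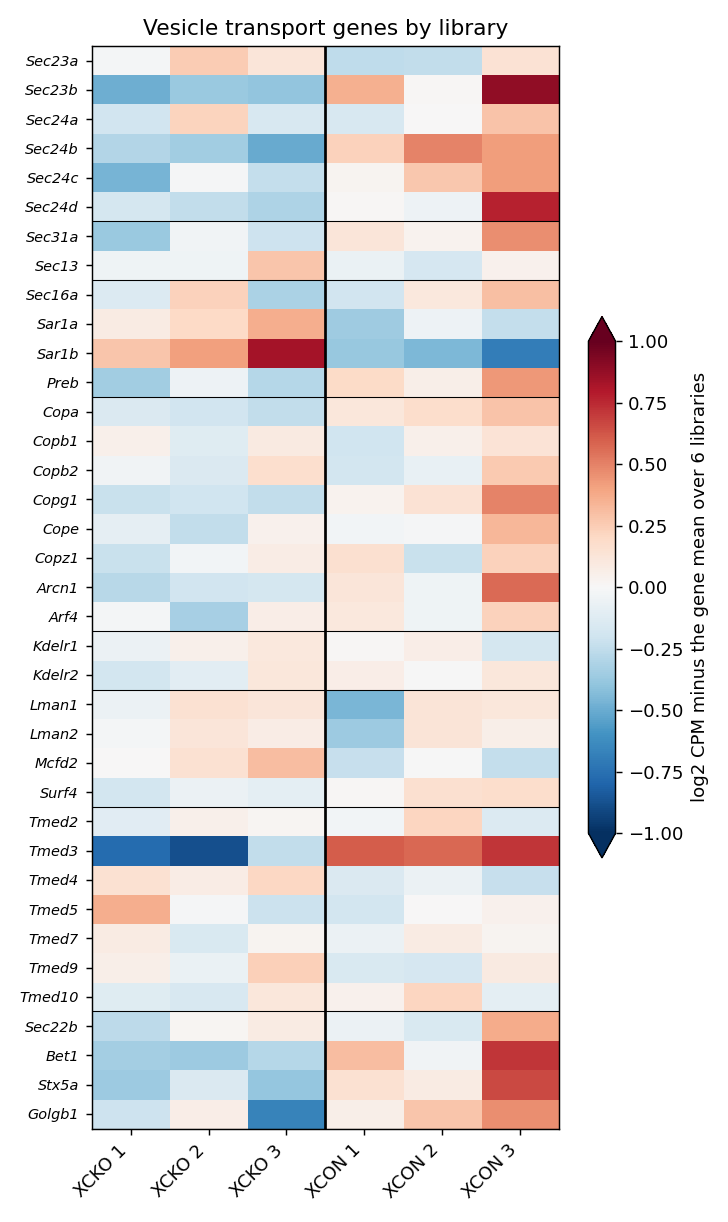
Log2 CPM of 37 genes in each library minus the gene's mean over the 6 libraries, XCKO at the left, grouped by role with thin lines (Kdelr3, at most 24 reads a library, is left out). Tmed3 and Sar1b have opposite colours in the groups, and XCON 3 is the darkest red column in the coat and SNARE rows.

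XCON 3 had the highest CPM of the 6 libraries for 22 of the 38 genes, against 2, 2 and 7 genes for XCKO 1, 2 and 3 and 0 and 5 genes for XCON 1 and 2. The genes' median log2 deviation from their own means was −0.13, −0.05 and 0.02 in XCKO 1, 2 and 3 and 0.01, 0.02 and 0.23 in XCON 1, 2 and 3, while over all genes tested it was 0.01 in XCON 3. Without XCON 3 the median log2 fold change of the 38 genes was −0.07 and the medians by role were −0.41 for the SNAREs and tether, −0.29 for the inner coat, −0.09 for coatomer and Arf4, −0.04 for the outer coat, −0.08 for the KDEL receptors, −0.02 for the p24 family, 0.19 for the lectins and Surf4 and 0.20 for the scaffold and Sar1 cycle. With all libraries the medians by role were −0.57 for the SNAREs and tether, −0.50 for the inner coat, −0.19 for coatomer and Arf4, −0.14 for the outer coat, −0.12 for the KDEL receptors, −0.03 for the p24 family, 0.11 for the lectins and Surf4 and 0.14 for the scaffold and Sar1 cycle. With library totals alone, the lectin and Sar1 cycle medians turned to −0.15 and −0.12, and with the length correction the p24 median turned to 0.14.

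None of the 6 genes with the UPRE letters passed in the main edgeR test. Sec23a, Copb1 and Copb2 had log2 fold changes of 0.23, 0.01 and −0.01, Sec24d, Stx5a and Kdelr3 had −0.53, −0.62 and −1.59. At an unadjusted p under 0.05, Sec24d (0.042) and Stx5a (0.008) were lower, where 15.4% of all genes tested were lower at that threshold. Of the 17 alternatives, Stx5a passed in 3, all in edgeR. These were library totals alone (adjusted p = 0.0249), no filter on low counts (0.0275) and a filter of 5 CPM in 3 libraries (0.0419). Its adjusted p was 0.053 in DESeq2, 0.0684 in limma-voom, 0.0983 with the length correction and 0.121 with the replicate block. In the 6 edgeR fits that left out a library it passed in 0, with adjusted p from 0.0715 to 0.176.

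**Figure D5:**
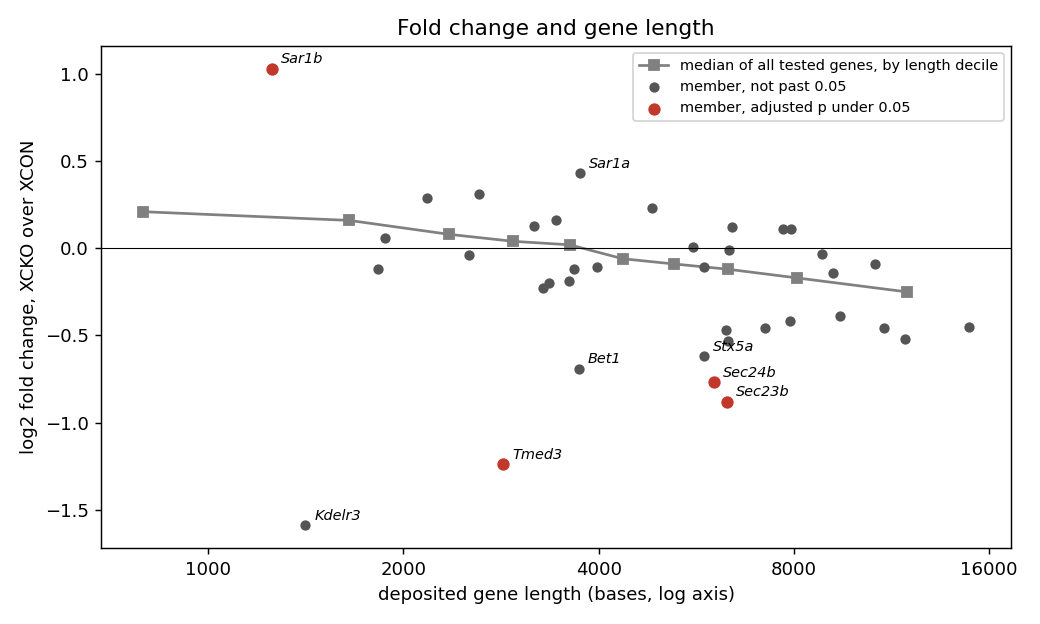
Log2 fold change of XCKO over XCON against deposited gene length (log axis) for the 38 genes, with the median of all tested genes in each length decile (grey squares). The median falls with length, and Tmed3, Sec23b, Sec24b and Sar1b (red) lie well off it.

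Other genes of the same route were taken as a list of 64, of which 61 were tested. In edgeR 3 rose, 3 fell and 55 did not pass, with a median log2 fold change of 0.06. The groups were apart upward in 15 and downward in 8, where all genes tested gave 17.6% upward and 18.1% downward. These 3 and 3 calls among 61 genes are near the 5.21% higher and 4.05% lower of all genes tested. Tmed1, a p24 protein outside the 38 genes, averaged 26.2 ± 3.9 CPM in XCKO and 11.6 ± 2.6 CPM in XCON (log2 fold change 1.18, adjusted p = 0.016). Trappc5, a subunit of the TRAPP tether, averaged 29.3 ± 2.6 CPM in XCKO and 15.9 ± 0.87 CPM in XCON (0.88, adjusted p = 0.012), and Bcap31, an ER export chaperone of membrane proteins, 209 ± 12 CPM in XCKO and 127 ± 7.2 CPM in XCON (0.72, adjusted p = 0.025). Uso1, the p115 tether that works with giantin, averaged 73.4 ± 0.77 CPM in XCKO and 122 ± 21 CPM in XCON (−0.73, adjusted p = 0.031). Rint1, a subunit of the tether for COPI vesicles at the ER, averaged 11.1 ± 0.48 CPM in XCKO and 20.5 ± 3.6 CPM in XCON (−0.88, adjusted p = 0.019), and Arfgap3, a GTPase activator of coatomer uncoating, 6.22 ± 0.85 CPM in XCKO and 14.5 ± 5.6 CPM in XCON (−1.22, adjusted p = 0.030). Trappc5 passed in all 6 fits that left out a library, with an adjusted p of at most 0.044. Tmed1 passed in 5 of them (up to 0.0507), Rint1 in 4 (up to 0.07), Arfgap3 in 2 (up to 0.0989), and Bcap31 and Uso1 in 1 each (up to 0.0723 and 0.0918). With the length correction Bcap31, which is in the shortest length decile, had a log2 fold change of 0.48 (adjusted p = 0.0708) and Uso1 one of −0.64 (adjusted p = 0.0514). With library totals alone Bcap31 had 0.45 (adjusted p = 0.0787), and on log2 FPKM with a pseudocount of 1 Arfgap3 had −0.80 (adjusted p = 0.0539). Without XCKO 3 the list had 1 gene higher and 0 lower.

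Genes for the steps before vesicle budding were counted in the same way. Of 23 genes for ER translocation 9 fell and 0 rose, with a median of −0.25, with the smallest p for Tram1, a translocon-associated protein, at 81.0 ± 3.9 CPM in XCKO and 178 ± 5.7 CPM in XCON (adjusted p = 0.0082). Of 31 genes for ER folding and degradation 9 fell and 0 rose, with a median of −0.36, with the smallest p for Sdf2l1, a chaperone cofactor, at 15.8 ± 1.2 CPM in XCKO and 39.9 ± 5.3 CPM in XCON (adjusted p = 0.0059). Leaving out any 1 library gave 3 to 5 falls in the translocation list, and 3 without XCKO 2 and 1 without XCKO 3 in the folding list. Over all genes tested 4.05% were called lower and 5.21% higher, with a median log2 fold change of −0.05. The vesicle transport genes had 3 of 38 lower, and the difference between the lists was not tested. All of these lists were chosen with earlier results of these data known.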

How the data were processed

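Per the labels' protocols, Trizol RNA from 6 hepatocyte samples went into NEBNext Ultra libraries. The deposited table holds, for each gene, the authors' raw read counts, FPKM, group means as a signal on the scale of normalised counts, log2 fold changes and p-values. Bowtie 0.12.2 is named, with mm8 as well as mm10 and no role for either, per the submitters' processing notes. No source used here gives the counter or says whether strand was used. Coordinates are those of the table, which for 36 of the 38 genes equal GENCODE M21 on GRCm38 (mm10). The authors' deposited FPKM are the counts over gene length and over a library size built from median-of-ratios size factors.

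Counts were scaled by TMM, filtered with filterByExpr at its defaults (14873 genes left) and tested with edgeR 4.0.16 (R 4.3.3, quasi-likelihood F test, robust) on group alone, adjusted by Benjamini-Hochberg across every tested gene. The biological coefficient of variation was 25.8%, on 4 residual degrees of freedom. The SE is |log2 fold change| over the root of F. CPM use the TMM-scaled totals. Paralog ratios add a count of 2 before the log. No label names the mouse of a library, so the spread behind the p-values is that between libraries, which may be technical, and no label names a batch. All 38 genes are named, with full statistics for those called and values by library for these and the paralog pairs. Every called gene of the other ER-Golgi list is named. Of the ER translocation and ER folding lists, up to 4 called genes with the smallest p were eligible. The genes and lists were chosen with earlier results of these data known. Alternatives were DESeq2 1.42.0, limma-voom (limma 3.58.1), limma on log2 FPKM with a pseudocount of 1 or 0.1, other scalings and filters, a length offset, a replicate block and each library left out.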

Additional observations from a re-analysis of the deposited data

How the results depend on the processing

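Xbp1 and Tmed3 passed under all 17 alternatives and kept their direction, as did the direction of Sec23b, Sec24b and Sar1b. Of the 38 genes, 11 were called lower with library totals alone, 5 with no filter on low counts and 5 with a filter of 5 CPM in 3 libraries. Leaving out each library gave 0 to 1 higher and 1 to 4 lower genes. Calls over all genes were 1378 in the main test, 2358 with library totals, 2160 with no filter and 2507 with DESeq2, and 309 (without XCKO 3) to 810 when a library was left out. Other ER-Golgi genes called higher numbered 6 with no filter and 9 with DESeq2, and called lower 10 with library totals; leaving out a library gave 1 to 3 higher and 0 to 3 lower. The median log2 fold change of the 38 genes was −0.39 with library totals and −0.17 to −0.07 when a library was left out. The Sec24d to Sec24c ratio, with no difference in the main comparison, ran from −0.17 to 0.17 when a library was left out. The cause of these changes was not tested, except that fits without a library have fewer samples.

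With the replicate number as a block, 0 of the 38 genes were called higher and 1 lower (Tmed3), 322 of all genes passed, and 1 other ER-Golgi gene was called higher and 0 lower. Adjusted p-values were then 0.0664 for Sar1b, 0.0547 for Sec24b and 0.0757 for Sec23b. Deviations of same-numbered libraries correlated at 0.0554, 0.0765 and −0.168, and not every library correlated best with its own number. With deviations from means of 3 libraries, these correlations cannot decide whether the numbers pair the samples. Depth limits Kdelr3, with 1 to 24 reads a library, and 3 libraries per group cannot give a permutation p under 0.1.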
